A study of Mus musculus with 11 samples.

Results

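Cholangiocytes are the epithelial cells that line the bile ducts. In chronic liver injury, including steatohepatitis, cells with biliary features multiply around the portal tracts, a change called the ductular reaction, and it often accompanies fibrosis. The 8 genes followed here are commonly used to mark these cells: the keratins *Krt7* and *Krt19*, the adhesion and junction genes *Epcam*, *Cldn4* and *Cldn7*, the transcription factor gene *Sox9*, the chloride channel gene *Cftr* and the surface marker gene *Prom1*. They were taken by symbol from a table of read counts of 46603 genes. All 8 were found, and all 8 passed the filter on low counts that left 13880 genes for testing.

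The livers came from male B6.V-Lep ob/JRj (*ob/ob*) mice, which lack leptin, and all mice were fed the AMLN diet, which is rich in fat, fructose and cholesterol, from 5 to 6 weeks of age, for 15 weeks before dosing and throughout it. The mice entered the study after a liver biopsy had shown steatosis and fibrosis (AMLN *ob/ob*-MASH mice). INT-767 is a bile acid analog and an agonist of the nuclear receptor FXR and the membrane receptor TGR5. It was given by oral gavage at 10 mg/kg once daily for 8 weeks, and control mice received the vehicle, carboxymethyl cellulose. The data hold 4 livers of mice given INT-767 and 7 of mice given vehicle; the dosed groups were larger, and how the sequenced livers were picked is not given in the sources used here. Bulk RNA-seq was performed on tissue of the left lateral lobe, with 1 library per mouse, so that the mice are the replicates.

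Total counts ranged from 7966963 to 15295230 per mouse with vehicle and from 7381211 to 16022459 with INT-767. Levels are given as CPM, a gene's count relative to the library total after scaling by edgeR's TMM factors, and fold changes as log2 of INT-767 over vehicle. An adjusted *p* is that of edgeR's quasi-likelihood test with Benjamini-Hochberg adjustment over the 13880 genes, and a gene was called at an adjusted *p* under 0.05. Before scaling by the TMM factors, a count of 0 would allow between 0.187 and 0.406 CPM, depending on the mouse, from counting error only. All 8 markers had counts in every mouse, down to 8 reads for *Cftr* and 11 for *Cldn4*. As a check of the treatment label, *Nr0b2*, a target gene of FXR, had 9.71 to 26.0 CPM with vehicle and 41.1 to 62.9 with INT-767 (log2 fold change 1.54, SE 0.25, edgeR adjusted *p* = 0.00474).

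Of the 8 markers, *Cldn4* was called lower with INT-767 and none was called higher. Across all tested genes, 4.68% were called lower and 5.04% higher. All 8 log2 fold changes were under 0, with a median of -0.62, whereas 50.6% of all tested genes were under 0, with a median of -0.01. At an unadjusted *p* under 0.05 in the edgeR test, 5 of the 8 (*Krt19*, *Epcam*, *Sox9*, *Cldn4* and *Cftr*) were lower, against 15.6% of all tested genes. The number of markers called lower was 0 without INT-767 mouse 2, 3 without INT-767 mouse 3 and 2 without vehicle mouse 1. In these fits 110 of 14349, 619 of 14329 and 1370 of 13898 tested genes were called lower, against 649 of 13880 with all mice. The markers varied together across livers, so that they are not 8 independent observations. In bulk tissue, fewer biliary cells and less RNA of these genes per cell cannot be told apart. CPM is also a share of each library, and the part of RNA from other cells in these values was not tested.

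**Figure D1:**
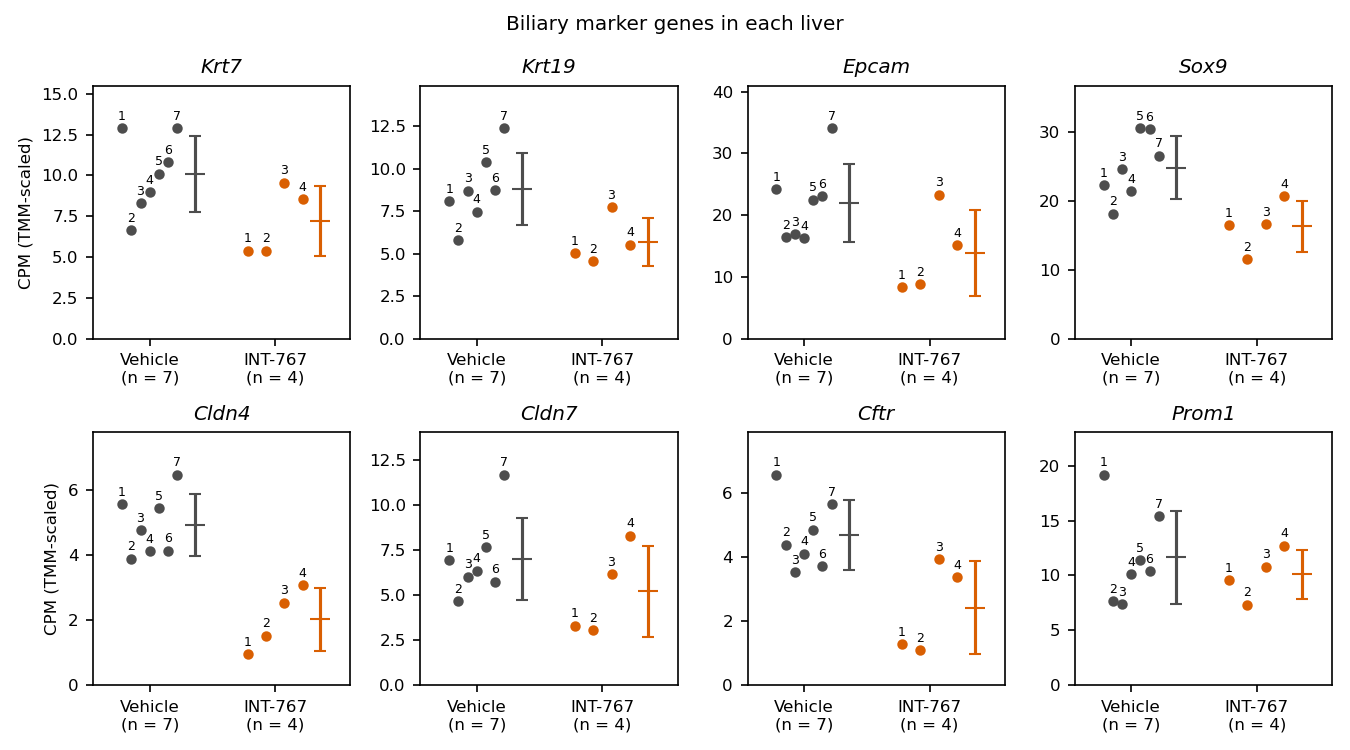
CPM of each of the 8 marker genes (vertical axis, TMM-scaled) in the 7 vehicle livers (grey) and the 4 INT-767 livers (orange), with 1 point per mouse, the mouse number above it, and the mean and SD beside the points. The groups are apart for *Cldn4* and overlap for the other 7 genes.

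Claudin-4 is a tight junction protein of biliary and other simple epithelia. *Cldn4* lies on chromosome 5 (GRCm38, 134945119 to 134946934, minus strand) and has a single exon in the GENCODE M21 annotation. With vehicle, mice 1 to 7 had 5.57, 3.88, 4.77, 4.11, 5.44, 4.13 and 6.47 CPM. With INT-767, mice 1 to 4 had 0.952, 1.52, 2.53 and 3.07 CPM. Every treated liver was therefore below every vehicle liver, a separation seen downward in 3.64% of all tested genes. The mean fell from 4.91 ± 0.956 (SD, n = 7) to 2.02 ± 0.958 CPM (SD, n = 4), a log2 fold change of -1.29 (SE 0.31, 95% interval -1.95 to -0.63, edgeR adjusted *p* = 0.0245). By an exact Mann-Whitney test (two-sided) *p* was 0.00606, the smallest that 7 against 4 mice allow, and 0.0807 after adjustment over all tested genes, so that no gene could pass by that test. The call was lost without INT-767 mouse 2 (log2 fold change -1.21, edgeR adjusted *p* = 0.0929).

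Claudin-7 is a related junction protein that binds the adhesion molecule encoded by *Epcam*. *Cldn7* is on chromosome 11 (69964779 to 69967885, plus strand, 4 exons). Its level with vehicle ran from 4.68 through a median of 6.35 to 11.7 CPM, and the treated mice 1 to 4 had 3.30, 3.04, 6.18 and 8.31 CPM. Mice 1 and 2 were below all vehicle livers, whereas mouse 4 exceeded all vehicle livers except mouse 7. The log2 fold change was -0.43 (SE 0.32, 95% interval -1.12 to 0.25, edgeR adjusted *p* = 0.339), and it moved with single mice, to -0.25 without INT-767 mouse 1, -0.28 without INT-767 mouse 2, -0.26 without vehicle mouse 7 and -0.78 without INT-767 mouse 4. Thus the interval for *Cldn7* includes 0 and that for *Cldn4* does not, and the difference between the genes was not tested.

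*Epcam*, on chromosome 17 (87635979 to 87651129, plus strand, 10 exons), encodes an adhesion molecule of biliary and progenitor cells that adult mouse hepatocytes largely lack. Vehicle livers had between 16.3 and 34.1 CPM, with a median of 22.5, and INT-767 livers had 8.31, 8.83, 23.3 and 15.1 CPM. Treated mice 1, 2 and 4 were below the lowest vehicle liver, and mouse 3 was above the vehicle median. Means were 21.9 ± 6.35 CPM (SD, n = 7) and, after treatment, 13.9 ± 7.01 (SD, n = 4), with a log2 fold change of -0.67 (SE 0.30, edgeR adjusted *p* = 0.146). The estimate depended on single treated mice: it was -1.02 without INT-767 mouse 3, its highest treated liver, and the gene was then called (edgeR adjusted *p* = 0.0457), but -0.48 without mouse 1 (edgeR adjusted *p* = 0.250) and -0.52 without mouse 2 (edgeR adjusted *p* = 0.361).

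Keratins 7 and 19 form the intermediate filaments of bile duct cells and are the usual stains for ducts in tissue sections. *Krt19* (chromosome 11, 100140810 to 100148665, minus strand, 6 exons) had 5.78 to 12.4 CPM with vehicle, with a median of 8.72, and 5.01, 4.55, 7.73 and 5.54 CPM in treated mice 1 to 4. Of the 4 treated livers, 3 were below the lowest vehicle liver. Its log2 fold change was -0.63 (SE 0.23, edgeR adjusted *p* = 0.0844), with an exact two-sided Mann-Whitney *p* of 0.0242 before adjustment. *Krt7* (chromosome 15, 101411043 to 101430313, plus strand, 9 exons) ranged from 6.66 to 12.9 CPM with vehicle, with a median of 10.1, and the treated livers had 5.39, 5.38, 9.56 and 8.53 CPM. Treated mice 1 and 2 were again the lowest of the 11, and mice 3 and 4 lay within the vehicle range. Its log2 fold change was -0.49 (SE 0.24, edgeR adjusted *p* = 0.163), and -0.25 (edgeR adjusted *p* = 0.543) when GC content and transcript length were corrected for in each library by an offset.

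*Sox9*, on chromosome 11 (112782224 to 112787760, plus strand, 3 exons), encodes a transcription factor needed for bile duct formation, which also appears in hepatocytes near the portal tracts and in activated stellate cells. It was the most abundant of the 8 by CPM. Vehicle livers had 18.1 to 30.5 CPM with a median of 24.5, and INT-767 livers had 16.4, 11.5, 16.6 and 20.6 CPM. Treated mice 1, 2 and 3 were below every vehicle liver, while mouse 4 was above only vehicle mouse 2. The mean was 24.8 ± 4.66 CPM (SD, n = 7) against 16.3 ± 3.74 (SD, n = 4), with a log2 fold change of -0.61 (SE 0.19, 95% interval -1.02 to -0.19). The edgeR adjusted *p* was 0.0643, with 0.0425 without vehicle mouse 1 and 0.204 without INT-767 mouse 2. With the offset for GC content and length the log2 fold change was -0.38 (edgeR adjusted *p* = 0.191).

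*Cftr* encodes the apical chloride channel through which cholangiocytes drive fluid and bicarbonate into bile. It lies on chromosome 6 (18170687 to 18322768, plus strand, 28 exons). Vehicle livers had 3.53 to 6.58 CPM, with a median of 4.39, and treated livers 1.27, 1.10, 3.94 and 3.37 CPM. Treated mice 1, 2 and 4 were below the lowest vehicle liver, mice 1 and 2 far below it, and mouse 3 was inside the vehicle range. The log2 fold change was -0.96 (SE 0.35, 95% interval -1.72 to -0.21, edgeR adjusted *p* = 0.0857), the largest of the 8 after *Cldn4*. It was -1.25 without INT-767 mouse 3, and the gene was then called (edgeR adjusted *p* = 0.0494), but -0.72 without mouse 1 (edgeR adjusted *p* = 0.136) and -0.76 without mouse 2 (edgeR adjusted *p* = 0.237).

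*Prom1* encodes prominin-1 (CD133), a membrane protein of apical protrusions that is used as a marker of biliary progenitors. It is on chromosome 5 (43993620 to 44102032, minus strand, 25 exons). With vehicle it ranged from 7.37 to 19.2 CPM, with a median of 10.4, and with INT-767 the 4 livers had 9.58, 7.32, 10.8 and 12.7 CPM. The groups overlapped, and vehicle mice 1 and 7, at 19.2 and 15.4 CPM, were above every treated liver. Its log2 fold change of -0.20 (SE 0.27, 95% interval -0.78 to 0.38, edgeR adjusted *p* = 0.609) was the smallest of the 8, and -0.04 without vehicle mouse 1. An exon of another gene on the opposite strand overlaps 5.91% of its exon bases, against 1.66% for *Cftr*, 1.09% for *Krt7* and 0% for the other 5, and it is not given whether counting used the strand.

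**Figure D2:**
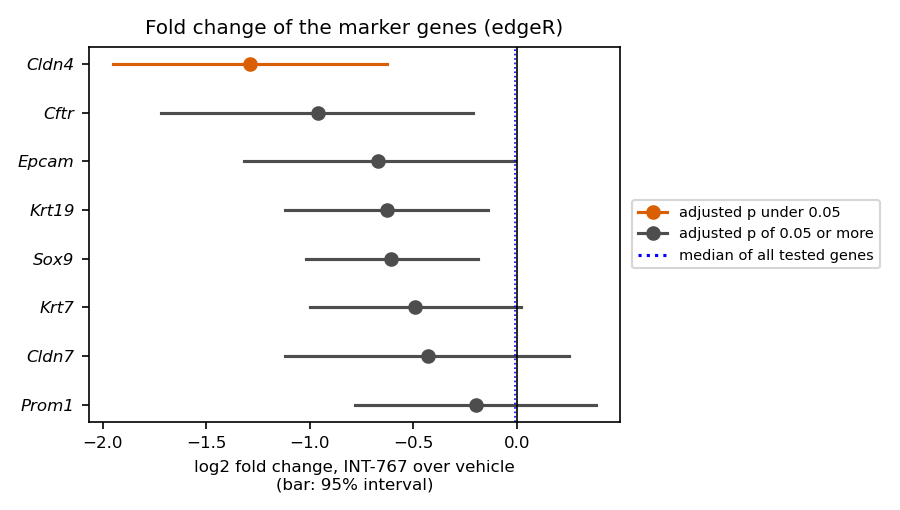
Log2 fold change of INT-767 over vehicle (horizontal axis) for the 8 marker genes, from the edgeR fit to 7 vehicle and 4 INT-767 livers, with 95% intervals; the dotted line is the median of all tested genes. All 8 points are under 0, and only *Cldn4* (-1.29, orange) has an adjusted *p* under 0.05.

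Since the level of a gene in CPM depends on the length of its transcript, levels were compared between genes per kilobase of annotated exon (RPKM). With vehicle, *Epcam* was highest at 9.99 ± 2.89 RPKM, and *Sox9* had 5.99 ± 1.13, *Krt19* 4.74 ± 1.14 and *Cldn7* 3.61 ± 1.17 RPKM (SD, n = 7). Lower down were *Cldn4* at 2.70 ± 0.526, *Prom1* at 1.62 ± 0.596, *Krt7* at 1.43 ± 0.332 and *Cftr* at 0.604 ± 0.142 RPKM. The ranges over vehicle livers of neighbours in this order overlapped, except that *Epcam* stayed above *Sox9* and *Cftr* below *Krt7* in all 7 livers. With INT-767 the means were 6.33 RPKM for *Epcam*, 3.93 for *Sox9*, 3.08 for *Krt19*, 2.67 for *Cldn7*, 1.41 for *Prom1*, 1.11 for *Cldn4*, 1.02 for *Krt7* and 0.312 for *Cftr*. The order of close neighbours depends on the length used: per kilobase of the longest transcript, the vehicle mean was 2.85 for *Prom1*, 2.70 for *Cldn4* and 2.47 for *Krt7*.

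Relative to the mean, the spread among livers was larger with INT-767 for 7 of the 8 markers, by little for some of them, and smaller for *Prom1*. The coefficient of variation of *Cftr* was 59.7% with INT-767 and 23.4% with vehicle, that of *Epcam* 50.4% and 29.0%, and that of *Cldn4* 47.5% and 19.5%. For *Krt19* it was 24.6% and 24.1%, and for *Prom1* 22.4% and 36.8%. The SD itself was lower with INT-767 for *Krt7*, *Krt19*, *Sox9* and *Prom1*, and for *Cldn4* it was 0.958 CPM against 0.956 with vehicle. These differences in spread were not tested. INT-767 mouse 2 had the lowest level of all 11 livers in 6 genes and INT-767 mouse 1 in the other 2, *Epcam* and *Cldn4*. The summed level of the 8 genes was 50.3 and 43.2 CPM in these mice, but 80.7 and 77.2 CPM in treated mice 3 and 4, inside the vehicle range of 67.6 to 125 CPM. At the other end, vehicle mouse 7 was among the 3 highest livers for all 8 genes and highest for 5.

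**Figure D3:**
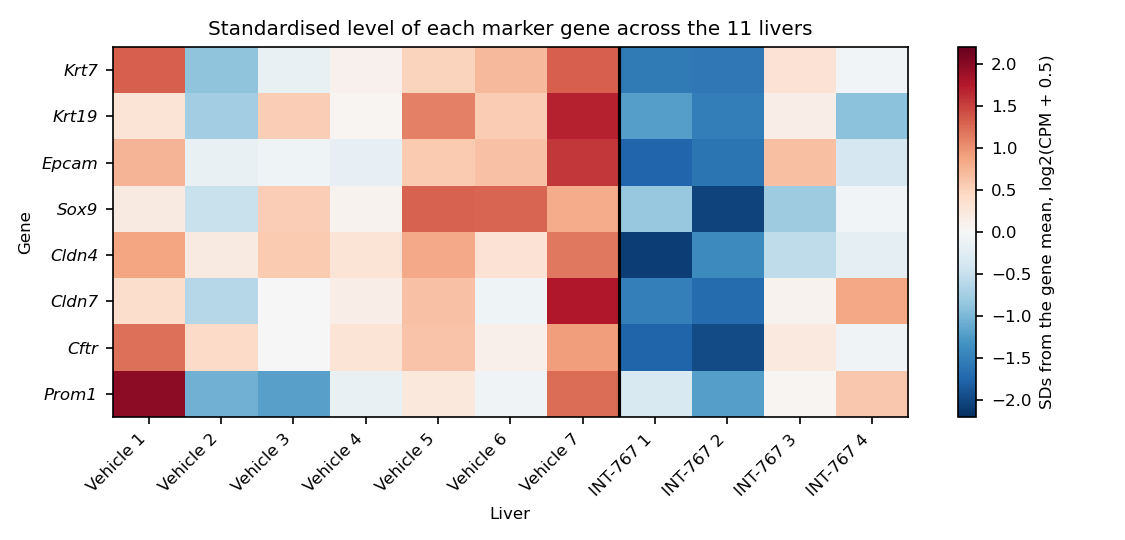
Standardised level of each marker gene (rows) in each of the 11 livers (columns), as SDs from the gene's mean of log2(CPM + 0.5), red above and blue below, with a black line between vehicle and INT-767. INT-767 mice 1 and 2 are below the mean in all 8 rows (average -1.38 and -1.63), and INT-767 mice 3 and 4 are near 0 on average (0.02 and -0.03).

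Across the 11 livers, log2(CPM + 0.5) of the markers correlated positively in all 28 pairs of genes, with Pearson's *r* between 0.411 (*Sox9* with *Prom1*) and 0.939 (*Krt7* with *Epcam*) and a median of 0.80. Once the group means had been taken out, *r* ran from 0.378 to 0.908 with a median of 0.722. Within the 7 vehicle livers alone the median was 0.728, and *Sox9* with *Cftr* was the single pair under 0 (-0.0932). These correlations are descriptions over few mice, and all genes of a liver share its library and scaling factor.

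A ratio between genes of the same liver does not depend on library scaling. Relative to the mean log2 level of the other 7 markers, *Cldn4* was at -1.13 on the log2 scale with vehicle (SD 0.14, range -1.36 to -0.91, n = 7) and at -1.92 with INT-767 (SD 0.43, range -2.53 to -1.57, n = 4). No treated liver overlapped the vehicle livers. *Cldn4* was thus lower by 0.79 on this scale with respect to its fellow markers, and *Cftr* was lower by 0.50 with overlapping groups. *Prom1* moved the other way, from 0.23 to 0.86, with overlap through vehicle mouse 1, which was at 0.87. *Krt7*, *Cldn7*, *Krt19*, *Sox9* and *Epcam* shifted by between -0.04 and 0.24. These ratios were read from the same values as the fold changes and were not tested.

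**Figure D4:**
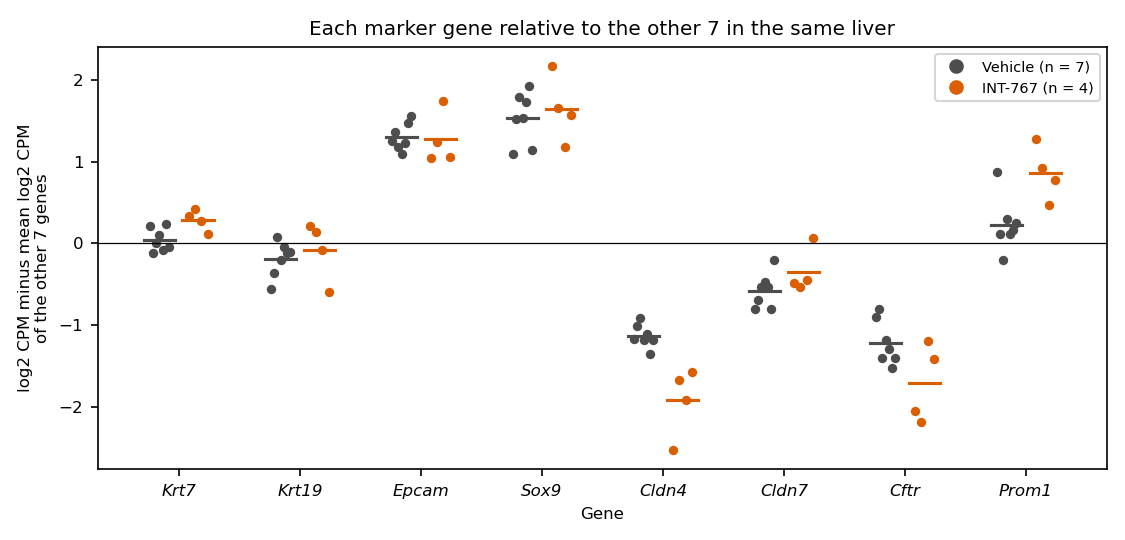
Log2 CPM of each marker gene minus the mean log2 CPM of the other 7 in the same liver (vertical axis), for 7 vehicle (grey) and 4 INT-767 (orange) livers, with a bar at each group's mean. The groups are apart for *Cldn4* (means -1.13 and -1.92), and *Prom1* is the gene that moved up most (0.23 and 0.86).

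The promoters of *Cldn4* and *Prom1*, the markers at either end of this range, and of the other claudin marker, *Cldn7*, are shown because FXR, the receptor that INT-767 activates, binds paired copies of the hexamer AGGTCA, and because grainyhead factors such as the product of *Grhl2*, described below, bind the letters AACNGGTT. Windows of 250 bases before the annotated start were read from RefSeq (GRCm38.p6), which matched 6 of the 8 markers with 8 windows. Both motifs, and the letters GTTAAT of HNF1 sites, were searched on both strands. The sequences are written 5′ to 3′ on the gene's strand, with the match in capitals, for *Cldn4* (chr5:134946935-134947184, minus strand), *Cldn7* (chr11:69964529-69964778, plus strand) and *Prom1* (chr5:44101737-44101986, minus strand).
Cldn4: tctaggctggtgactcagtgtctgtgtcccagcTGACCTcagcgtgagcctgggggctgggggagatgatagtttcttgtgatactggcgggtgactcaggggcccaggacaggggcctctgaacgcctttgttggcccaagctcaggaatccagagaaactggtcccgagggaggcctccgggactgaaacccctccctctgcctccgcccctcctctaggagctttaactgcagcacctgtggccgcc
Cldn7: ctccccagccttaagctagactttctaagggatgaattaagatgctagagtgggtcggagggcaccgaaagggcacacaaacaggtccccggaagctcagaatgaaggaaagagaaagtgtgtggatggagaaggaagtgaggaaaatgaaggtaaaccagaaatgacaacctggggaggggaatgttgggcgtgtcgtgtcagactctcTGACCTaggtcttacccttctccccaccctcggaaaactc
Prom1: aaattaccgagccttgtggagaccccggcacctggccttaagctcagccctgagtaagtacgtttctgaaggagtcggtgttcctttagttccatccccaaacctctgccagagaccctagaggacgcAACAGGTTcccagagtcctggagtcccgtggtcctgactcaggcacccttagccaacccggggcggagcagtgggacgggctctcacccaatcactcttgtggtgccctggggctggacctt
The *Cldn4* window holds the FXR hexamer on its reverse strand, with its first letter 217 bases before the start, and the *Cldn7* window holds it on the reverse strand 40 bases before. A second *Cldn7* start has it 31 bases before. The hexamer occurs in 14% of the 32851 promoter windows searched, which do not cover every chromosome, and a single copy is not a paired element. The *Prom1* window holds the grainyhead letters 122 bases before the start, and a second *Prom1* start has them 45 bases before. They occur in 1.79% of the windows searched. The HNF1 letters, present in 6.43% of the windows searched, were in none of the 8, and the windows of *Krt7*, *Epcam* and *Cftr* held none of the 3 motifs. A match is a description of the letters only.

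To place the 8 markers among other genes of biliary and simple epithelia, 71 genes in 5 lists were examined, of which 66 were tested. Of these, 11 were called lower (16.7%, against 4.68% of all tested genes) and 3 higher, with a median log2 fold change of -0.44 and 51 under 0. The lists were chosen with earlier results of these data known. Some of their genes, such as *Lcn2* and *Krt8*, are also expressed by other liver cells, so the share is not one of biliary cells only. Without INT-767 mouse 2, 4 of the 11 remained called (*Cldn2*, *Spint1*, *Vtcn1* and *Cxcl5*), and none of the 3. Of all 14349 tested genes, 110 were then called lower and 164 higher. The calls of *Ehf*, *Lcn2*, *Jag1* and *Cd9* were lost, with edgeR adjusted *p* of 0.0801, 0.0842, 0.08 and 0.0781. Their log2 fold changes were then -1.11, -1.92, -1.03 and -0.67, against -1.28, -2.05, -1.13 and -0.76 with all mice. Without vehicle mouse 1, 18 genes of these lists were called lower, as were 1370 of all 13898 tested genes. Without vehicle mouse 6, 1 was called higher, as were 306 of all 13593. With all mice, 649 of all 13880 tested genes were called lower and 700 higher.

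The ductular reaction list, of 18 tested genes, had 4 called lower and none higher, with a median of -0.70. *Cxcl5*, a neutrophil chemokine, fell from 1.62 ± 0.426 CPM (SD, n = 7) to 0.277 ± 0.162 (SD, n = 4), with a log2 fold change of -2.38 (SE 0.38, edgeR adjusted *p* = 0.00471), although treated livers had only 1 to 6 reads each. *Vtcn1*, which encodes an inhibitory ligand of the B7 family, fell from 1.68 ± 0.259 to 0.491 ± 0.233 CPM (log2 fold change -1.69, SE 0.31, edgeR adjusted *p* = 0.00855). *Lcn2*, which encodes the iron-siderophore binding protein lipocalin-2, was at 190 to 756 CPM with vehicle and at 80.8, 50.7, 52.7 and 130 CPM with INT-767 (log2 fold change -2.05, SE 0.45, edgeR adjusted *p* = 0.0191). *Jag1*, which encodes a Notch ligand required for bile duct development, was at 13 to 27.7 CPM with vehicle and at 8.82, 6.63, 7.87 and 12.6 CPM with INT-767 (log2 fold change -1.13, SE 0.25, edgeR adjusted *p* = 0.0193, and 0.07 with the offset for GC content and length). In all 4 genes every treated liver was below every vehicle liver, as in 3.64% of all tested genes. These genes, like the called genes of the lists below, were picked by their call on the same livers. Their separation is therefore no further support. *Lcn2* is also made by injured hepatocytes and neutrophils. *Cp*, the most abundant gene of the list, encodes the plasma protein ceruloplasmin and had a log2 fold change of -0.21 (edgeR adjusted *p* = 0.493).

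Among 15 biliary transcription factor genes, 2 were called lower and none higher, with a median of -0.60. *Ehf*, an epithelial ETS factor, fell from 13.6 ± 3.62 CPM (SD, n = 7) to 5.59 ± 2.38 (SD, n = 4), with a log2 fold change of -1.28 (SE 0.29, edgeR adjusted *p* = 0.0201). *Grhl2*, which controls junction genes in duct cells and other epithelia, fell from 3.54 ± 0.752 to 1.83 ± 0.626 CPM with no overlap (log2 fold change -0.92, SE 0.26, edgeR adjusted *p* = 0.0436), a call that 6 of 19 alternative fits kept. With the offset for GC content and length its log2 fold change was -0.61 (edgeR adjusted *p* = 0.145). *Onecut2*, the most abundant, had a log2 fold change of 0.31 (edgeR adjusted *p* = 0.158).

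Of 17 tested genes of epithelial junctions and the cell surface, 3 were called lower and 2 higher, with a median of -0.27. The called claudins moved in different directions, and *Cldn3* and *Cldn6* were not called (log2 fold change -0.04 and -0.23, edgeR adjusted *p* = 0.816 and 0.585). *Cldn2*, a pore-forming claudin, was at 85.3 to 118 CPM with vehicle and at 60.8, 54.2, 65.4 and 57.2 CPM with INT-767, with a log2 fold change of -0.76 (SE 0.13, edgeR adjusted *p* = 0.00592). *Cldn12* rose from 79.2 ± 14.4 to 125 ± 15.8 CPM (log2 fold change 0.66, SE 0.16, edgeR adjusted *p* = 0.0247), and *Cldn1*, a sealing claudin, rose from 48.6 ± 12.2 to 80.3 ± 15.5 CPM (log2 fold change 0.72, SE 0.19, edgeR adjusted *p* = 0.0365). Neither rise was called when counts were scaled by library size only (log2 fold change 0.45 and 0.52, edgeR adjusted *p* = 0.0555 and 0.0693). That scaling moved the median of all tested genes from -0.01 to -0.22, so these lost calls are not particular to the claudins. *Cldn1* was called in 9 of 20 alternative fits, and had a log2 fold change of 0.39 (edgeR adjusted *p* = 0.134) with the offset for GC content and length. *Spint1*, an inhibitor of surface serine proteases, fell from 7.76 ± 1.85 to 3.03 ± 0.819 CPM (log2 fold change -1.35, SE 0.25, edgeR adjusted *p* = 0.00831), and the tetraspanin gene *Cd9* fell from 52.1 ± 6.92 to 30.8 ± 6.11 CPM (log2 fold change -0.76, SE 0.16, edgeR adjusted *p* = 0.0154). *Spint2*, the most abundant of the list, had a log2 fold change of 0.31 (edgeR adjusted *p* = 0.130).

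Of 13 tested genes of biliary transport and receptors, 2 were called lower and 1 higher, with a median of -0.44. *Slc10a2* encodes the apical sodium-dependent bile acid transporter, by which cholangiocytes take up bile acids. It was at 12.8 to 34.8 CPM with vehicle and at 40.6, 61.6, 38.7 and 71.6 CPM with INT-767, every treated liver above every vehicle liver (log2 fold change 1.40, SE 0.28, edgeR adjusted *p* = 0.0118). Its log2 fold change was 0.90 with the offset for GC content and length (edgeR adjusted *p* = 0.00109) and 1.31 without INT-767 mouse 2 (edgeR adjusted *p* = 0.0522). The calcium-activated potassium channel gene *Kcnn4* fell from 3.81 ± 1.09 CPM (SD, n = 7) to 1.17 ± 0.814 (SD, n = 4), with a log2 fold change of -1.70 (SE 0.44, edgeR adjusted *p* = 0.0313). *Bicc1*, an RNA-binding protein gene linked to biliary and renal cysts, fell from 54.5 ± 13.1 to 25.8 ± 13.6 CPM (log2 fold change -1.08, SE 0.31, edgeR adjusted *p* = 0.0453). *Kcnn4* was called in 10 of 19 alternative fits and *Bicc1* in 9 of 20. Without INT-767 mouse 2 their edgeR adjusted *p* were 0.0696 and 0.148, at log2 fold changes of -1.39 and -0.86. *Atp1b1*, the most abundant, had a log2 fold change of -0.05 (edgeR adjusted *p* = 0.856). Of the other simple keratins, none of 3 tested genes was called; *Krt8*, the most abundant and also a hepatocyte keratin, was at 504 ± 238 CPM with vehicle and 611 ± 363 with INT-767. *Krt18*, its partner keratin, named after its values were seen, was at 250 to 533 CPM with vehicle and at 246, 143, 240 and 139 CPM with INT-767, with no overlap (log2 fold change -0.72, SE 0.25, edgeR adjusted *p* = 0.0763).

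**Figure D5:**
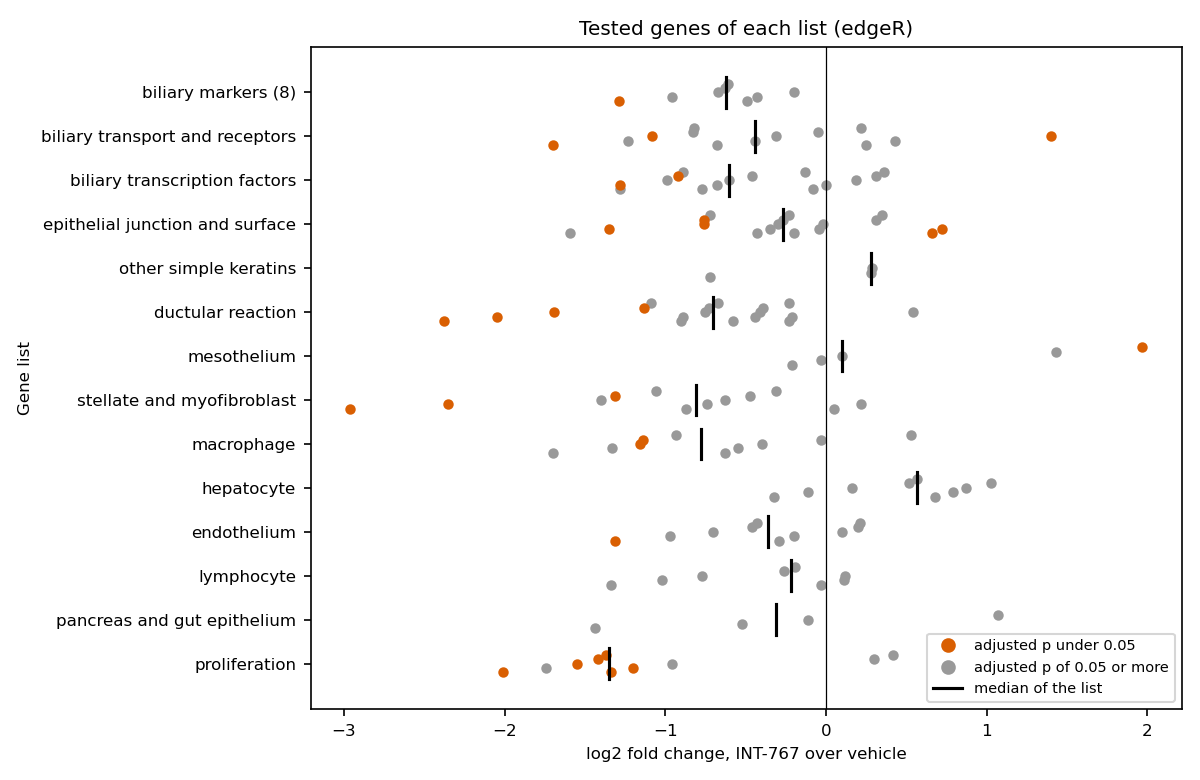
Log2 fold change of INT-767 over vehicle (horizontal axis) for every tested gene of the 8 markers and of 13 other lists (rows), with 1 point per gene, orange where the edgeR adjusted *p* was under 0.05 and grey otherwise, and a black bar at each list's median. The median is -0.62 for the 8 markers, -0.70 for ductular reaction genes and 0.57 for hepatocyte genes.

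Some markers of other cell types were also called, and the part of these cells in the values of the 8 markers was not tested. Hepatocyte markers, with *Alb* making up 62.9% of their level, summed to 62400 to 81700 CPM with vehicle (median 66200) and to 108000, 119000, 96300 and 82600 CPM with INT-767. Within the list the genes differed: *Alb* was at 79600, 77800, 60200 and 37700 CPM in treated mice 1 to 4, and *Apob*, the next most abundant and singled out after its values were seen, at 8350, 18900, 13400 and 26700 CPM. Of their 9 tested genes none was called, with a median log2 fold change of 0.57. Stellate cell and myofibroblast markers, with *Dcn* the most abundant, summed to 829 to 1790 CPM with vehicle (median 1070) and to 612, 668, 713 and 1130 CPM with INT-767, and 3 of 12 were called lower, with a median log2 fold change of -0.81. Of these, *Col1a2*, a chain of type I collagen, had a log2 fold change of -2.35 (edgeR adjusted *p* = 0.0272) and *Col1a1* one of -2.96 (edgeR adjusted *p* = 0.0297). Without INT-767 mouse 2 none of the 3 remained called, at log2 fold changes of -2.08 for *Col1a2*, -2.63 for *Col1a1* and -1.12 for *Pdgfrb*. With all mice that of *Pdgfrb* was -1.31.

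Macrophage markers, led by *Lyz2*, summed to 741 to 1050 CPM with vehicle (median 900) and to 534, 519, 476 and 1140 CPM with INT-767. Of the 10, with a median log2 fold change of -0.78, 2 were called lower, *Csf1r* (log2 fold change -1.14, edgeR adjusted *p* = 0.00498) and *Cd68* (-1.16, edgeR adjusted *p* = 0.00943). Of 10 proliferation genes 6 were called lower and none higher, with a median of -1.35, among them *Mki67* (log2 fold change -2.01, edgeR adjusted *p* = 0.0146) and *Mcm2* (-1.20, edgeR adjusted *p* = 0.00831). Without INT-767 mouse 2 these were the 2 of the 6 that remained called. In that fit *Top2a*, *Ccna2*, *Birc5* and *Mcm5* had log2 fold changes of -1.19, -1.2, -1.19 and -1.37, against -1.34, -1.37, -1.42 and -1.55 with all mice. Their sum, with *Pcna* the most abundant, was 58.2 to 132 CPM with vehicle (median 84.2) and 55.5, 66.8, 57.5 and 98.9 CPM with INT-767.

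Mesothelium, the covering of the liver surface, shares the keratins 7 and 19 with bile ducts. Of its 5 tested markers 1 was called higher and none lower, with a median log2 fold change of 0.10. The list summed to 10.9 to 23.3 CPM with vehicle (median 14.1) and to 22.5, 25.3, 21.4 and 17.9 CPM with INT-767. The gene called was *Lrrn4* (log2 fold change 1.97, edgeR adjusted *p* = 0.00329), and *Gpm6a* was the most abundant. Of the pancreas and gut list, *Cpa1*, *Pnlip*, *Amy2a5* and *Cdx2* were at 0 in every mouse and none of 4 tested genes was called; *Fabp2*, which made up 87.3% of the list's level, took its sum to 161 to 390 CPM with vehicle (median 239) and to 191, 455, 287 and 907 CPM with INT-767. Endothelial markers, with *Stab2* the most abundant, summed to 162 to 333 CPM with vehicle (median 248) and to 239, 159, 196 and 128 CPM with INT-767, and 1 of 10, *Vwf*, was called lower (log2 fold change -1.31, edgeR adjusted *p* = 0.036). *Vwf* was at -1.21 without INT-767 mouse 2 (edgeR adjusted *p* = 0.136) and at -0.73 with the offset for GC content and length (edgeR adjusted *p* = 0.0452). Lymphocyte markers, 92.2% of them *Ighm*, summed to 38.0 to 275 CPM with vehicle (median 47.8) and to 98.5, 33.8, 77.6 and 130 CPM with INT-767, with none of 8 called.

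The genes whose pattern over the 11 livers was most like the mean standardised level of the 8 markers were *Scara3* (Pearson's *r* = 0.970), *Fstl1* (0.969), *Epdr1* (0.968), *Lhfp* (0.961), *Igfbp7* (0.959), *Bcam* (0.958), *Mal* (0.955) and *Wisp1* (0.952). They were picked for this likeness among all tested genes, and within the 7 vehicle livers their *r* ran from 0.888 for *Mal* to 0.986 for *Bcam*. *Wisp1* was the one of the 8 that was called, with a log2 fold change of -1.36 (edgeR adjusted *p* = 0.0465). Of all tested genes, 4.68% were called lower. The log2 fold changes of the other 7 ran from -0.98 for *Scara3* to -0.37 for *Bcam*. The markers were themselves lower with INT-767, so fold changes under 0 follow in part from how these genes were picked.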

How the data were processed

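Liver RNA of 11 mice (7 vehicle, 4 INT-767, grouped by the sample labels) was measured by stranded mRNA sequencing for 75 cycles. The deposited values are unnormalized counts of reads on 46603 genes, of which 27306 had a count in any mouse. The submitters' processing notes name STAR 2.4.0 and the build GRCm38 (mm10). The study's supplementary methods name another STAR version, with an Ensembl release of the same build. How reads were counted, whether by strand, and any batch were not given in the sources used here. No library repeated another (smallest median chi-square per gene 1.03).

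Counts were scaled by TMM factors (0.843 to 1.14), filtered by filterByExpr (minimum count 10, minimum total count 15) and tested with glmQLFit (robust) and glmQLFTest in edgeR 4.0.16 under R 4.3.3. The Mann-Whitney test enumerated all 330 assignments of the mice. RPKM used the union of exons in GENCODE M21, not the Ensembl release that the supplementary methods name. Scripts were tested on simulated data. Alternatives were RLE factors, library size only, 2 other filters, a block for the replicate number, an offset for GC content and length (lowess span 0.3) without and with that block, leaving out each mouse, DESeq2 1.42.0, limma-voom (limma 3.58.1) and a threshold of 0.01. Plots were made in Python 3.11.15 (matplotlib 3.10.9).

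The 8 markers and all lists were chosen with earlier results of these data known. Named were all 8 markers, up to 5 called genes and the most abundant gene of each epithelial list, the most abundant gene, genes at 0 in every mouse and up to 2 called genes of each other list, the 8 genes most like the markers, and *Nr0b2*. Beyond this rule, called genes of the other lists are named where an alternative changed their call. *Krt18*, *Apob*, *Cldn3* and *Cldn6* were named after their values were seen. The hepatocyte marker *Tf* was not analysed here.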

Additional observations from a re-analysis of the deposited data

Results flagged for a closer look

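In 16 sets of values (8 markers in each of 2 groups), 1 liver stood apart from its group by Dixon's test. *Cldn7* in vehicle mouse 7 was at 11.7 CPM, and its gap to the next vehicle liver was 0.573 of the group's range. Chance alone flags about 1 in 20 such groups. Without this mouse the log2 fold change of *Cldn7* was -0.26 (edgeR adjusted *p* = 0.524). The same liver had the highest level of 5 of the 8 markers.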

How the results depend on the processing

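Over 20 alternatives the 8 markers were fitted 159 times, with a log2 fold change under 0 in 158. The exception was *Prom1*, at 0.02 with the GC content and length offset and the replicate block. *Cftr* had no value when 10 counts were asked for in every mouse. *Cldn4* stayed called in 17 of the 20 (log2 fold change -1.63 to -1.02). It was not called under the replicate block (-1.28, edgeR adjusted *p* = 0.431), under the offset with the block (-1.29, edgeR adjusted *p* = 0.303) or without INT-767 mouse 2 (-1.21, edgeR adjusted *p* = 0.0929). With one mouse left out, the log2 fold change of *Cldn4* ran from -1.63 to -1.02, *Epcam* from -1.02 to -0.48, *Cftr* from -1.25 to -0.72, *Krt19* from -0.80 to -0.53, *Sox9* from -0.74 to -0.49, *Krt7* from -0.64 to -0.36, *Cldn7* from -0.78 to -0.25 and *Prom1* from -0.33 to -0.04. Calls gained with all mice were *Krt19* by DESeq2 (adjusted *p* = 0.0441), *Sox9* by DESeq2 (0.0231) and with library size only (log2 fold change -0.83, edgeR adjusted *p* = 0.0416), and *Cftr* by DESeq2 (0.0329) and with the offset (0.046). Calls gained with 1 mouse left out were *Sox9* without vehicle mouse 1 (0.0425), and *Epcam* (0.0457) and *Cftr* (0.0494) without INT-767 mouse 3, all by edgeR. The same offset took *Krt7* from -0.49 to -0.25 (edgeR adjusted *p* = 0.543) and *Sox9* from -0.61 to -0.38 (edgeR adjusted *p* = 0.191). The cause was not tested for any of these.

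The main counts of markers called lower were 1, of all tested genes 700 higher and 649 lower, and of other epithelial genes 3 higher and 11 lower. Library size only gave 2 markers, 331 and 1026 genes, and 1 epithelial gene higher. This scaling moved the median log2 fold change of all genes to -0.22 and that of the markers to -0.84, and the share of calls that were higher from 51.9% to 24.4%. The offset gave 2 markers and 1066 genes higher. DESeq2 gave 4 markers, 1443 and 1368 genes, and 20 epithelial genes lower. Asking for 10 counts in every mouse left 7 epithelial genes lower, since genes with fewer counts were not tested. A threshold of 0.01 gave 0 markers, 158 and 87 genes, and 0 and 4 epithelial genes. With one mouse left out, the ranges were 0 to 3 markers, 164 to 1906 genes higher, 110 to 1370 lower, 0 to 3 epithelial genes higher and 4 to 18 lower. The lowest of these counts were without INT-767 mouse 2, and the highest counts of all genes without vehicle mouse 1.

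Replicate numbers are shared between the groups. The deviations of same-numbered mice from their group means correlated at -0.668, 0.192, 0.124 and -0.468 for numbers 1 to 4. No mouse correlated best with its own number, so these values gave no sign of pairing. So few correlations cannot exclude a factor that mice of the same number share. With the replicate block, 0 markers, 0 genes higher and 0 lower, and 0 epithelial genes were called by edgeR, with 1347 genes at an unadjusted *p* under 0.05. With the offset and the block the counts were again 0, with 1682 genes at that *p*. The block fits a term for each replicate number, and vehicle mice 5 to 7 have no INT-767 mouse of their number. The fits with the block therefore have less power to call a gene. The called genes of the other lists kept their direction in every alternative in which they were tested, but not always the call: *Ccna2* and *Birc5* were each called in 7 of 19, *Col1a1* and *Vwf* in 11 of 20, *Pdgfrb* in 12 of 20 and *Col1a2* in 13 of 20. At 8 to 97 reads per mouse for *Cftr* and 11 to 111 for *Cldn4*, counting error adds to the spread of these genes.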
